A study of Mus musculus with 12 samples.

Results

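The genes of the SLC25 mitochondrial carrier family were described in gonadal white adipose tissue (gWAT) of male mice. The members were all genes in the count table whose symbol starts with Slc25a, other than Slc25a1, with a mean of 0.5 CPM (counts scaled to a common library total) or more over the 12 libraries. This rule took 39 of the 46 Slc25a symbols in a table of 19792 genes. Slc25a34, at a mean of 0.565 CPM, was the lowest gene inside the threshold and Slc25a48, at 0.448 CPM, the highest outside it. Slc25a21, Slc25a31, Slc25a2, Slc25a18 and Slc25a41 lay lower still, at 0.0163 to 0.191 CPM. All 39 members also passed the filter on low counts and were tested.

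The 4 groups, of 3 libraries each, were KO-HFD, KO-NCD, WT-HFD and WT-NCD. KO mice carried the floxed Gja1 alleles with Csf1r creER (Cx43-MKO in the study), which deletes the gap junction protein connexin 43 in cells that use the Csf1r promoter, mainly macrophages. WT mice carried the floxed Gja1 alleles without the recombinase. All were labelled C57BL/6 and received a high-fat diet (HFD) or a normal chow diet (NCD) for 8 weeks, starting at 6 weeks of age. The protocol in the labels places tamoxifen, which switches the recombinase on, in weeks 1 and 5 for 5 days. The study's methods instead describe 5 consecutive days of dosing that ended before the experiments started. The treatment labels list tamoxifen for KO mice alone, whereas the study's methods give it to both genotypes. Tamoxifen and genotype therefore cannot be told apart if the labels are complete. The recombinase line carries an FVB strain name, so strain background can also differ between genotypes. The comparisons ask how the carriers differed with diet within each genotype and with genotype on each diet. Neither source says whether each library is 1 animal, and p-values therefore measure the spread between these libraries.

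SLC25 carriers are proteins of a common fold that exchange metabolites, nucleotides, cofactors and ions across the inner mitochondrial membrane, which is otherwise closed to them. Nearly all are encoded in the nucleus, made in the cytosol and inserted by the TIM22 import machinery. In white adipocytes they link mitochondrial oxidation with fatty acid synthesis in the cytosol, as they let carbon from the citric acid cycle out and phosphate, ADP and amino acids in. The dicarboxylate carrier Slc25a10 is known for its high level in white fat. A few members sit elsewhere, such as Slc25a17 in peroxisomes and Slc25a46 in the outer mitochondrial membrane.

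Library totals ran from 47185990 to 73167755 counts. The 8 adipocyte markers, which include Adipoq and Plin1, were high in all libraries, with a summed level of 20319 to 22779.9 CPM in KO-HFD, 15314 to 18466 CPM in KO-NCD, 13723 to 18064 CPM in WT-HFD and 17252 to 23632 CPM in WT-NCD. CPM here and below are scaled by TMM, a correction for differences in composition between libraries. Some libraries stood apart. Genes of the seminal vesicle, an organ beside gonadal fat, took 8.58, 10.1 and 1.97% of the counts in WT-NCD 1, 2 and 3 and at most 0.00166% in any other library. In comparisons with WT-NCD, the group and the presence of this organ therefore cannot be told apart. Genes of 6 secreted liver proteins took 0.151% in KO-HFD 2 and 0.0577% in KO-NCD 2. Their sum was 158.6 to 1426 CPM in KO-HFD and 14.7 to 544 CPM in KO-NCD, against 5.27 to 52 CPM in WT-HFD and 6.45 to 11.1 CPM in WT-NCD. The 5 neutrophil markers summed to 23.9, 179 and 489 CPM in WT-HFD 1, 2 and 4, against 7.33 to 12.2 CPM in WT-NCD. Gja1 itself, counted in the whole tissue, was at 67.2, 96.8 and 65.7 CPM in KO-HFD and 48.9, 149.8 and 67.1 CPM in KO-NCD, against 68.8, 65.8 and 68.1 CPM in WT-HFD and 73.8, 76.8 and 83.6 CPM in WT-NCD. This level covers all cell types and does not check the deletion in macrophages.

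Levels differed widely between members once counts were divided by exon length. The ADP/ATP carrier Slc25a5 was highest, at a mean level of 186 CPM per kb of exon over the 12 libraries. It was followed by Slc25a10 at 112, the ADP/ATP carrier Slc25a4 at 100.2, the phosphate carrier Slc25a3 at 65.7 and the glutathione carrier Slc25a39 at 53.8 CPM per kb. The lowest was Slc25a34, an orphan carrier, at 0.204 CPM per kb. The 39 members together summed to 2554, 2796 and 2919 CPM in KO-HFD and 2641, 2947 and 2839 CPM in KO-NCD, against 2340.1, 2197 and 2134 CPM in WT-HFD and 3932, 3477 and 3631 CPM in WT-NCD. The sum was thus lowest in WT-HFD and highest in WT-NCD, and neither overlapped any other group, while the KO groups lay between them and overlapped each other. As a share of all counts, without TMM, the members took 0.264 to 0.301% in KO-HFD and 0.277 to 0.313% in KO-NCD, against 0.23 to 0.238% in WT-HFD and 0.302 to 0.333% in WT-NCD, so that WT-NCD overlapped KO-NCD and WT-HFD remained the lowest. In bulk tissue, fewer cells of a type and less RNA per cell cannot be told apart.

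**Figure D1:**
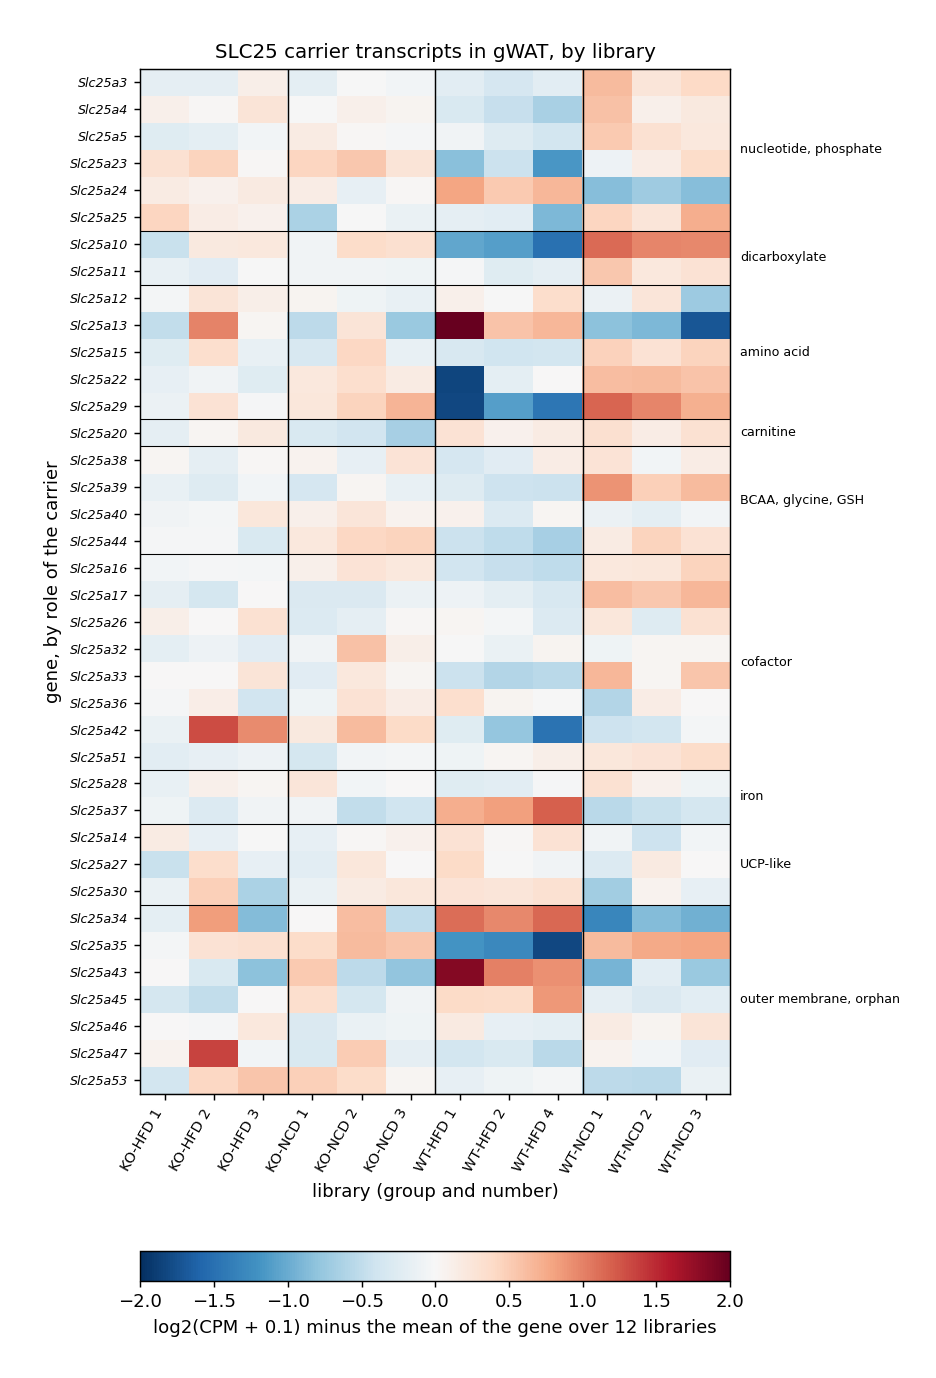
Level of 38 of the 39 members (rows, grouped by the role of the carrier) in each of the 12 libraries (columns), as log2(CPM + 0.1) minus the mean of the gene over all libraries. Red is above and blue below that mean. The 3 WT-HFD columns hold the lowest values of Slc25a10, Slc25a29 and Slc25a35 and the highest of Slc25a24 and Slc25a37.

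In WT mice, more carriers were lower than higher on HFD. Of the 39 members, 23 passed in WT-HFD against WT-NCD at an adjusted p under 0.05, with 6 higher and 17 lower. Of all 16352 genes tested, 36% passed, 17.6% higher and 18.4% lower. The median log2 fold change was -0.27 over the members and -0.0002 over all genes. The 6 that rose were Slc25a24, Slc25a37, Slc25a34, Slc25a13, Slc25a43 and Slc25a45. Slc25a34 had a mean over 0.5 CPM in WT-HFD alone, so its rise and its interaction come from the group that made it a member. Slc25a48, just outside the threshold and not in the counts, went the other way, at 1.07 CPM in WT-NCD and 0.02 CPM in WT-HFD. Other transcripts moved as well in this comparison. Of 14 genes of respiratory chain and other mitochondrial proteins, 13 fell and 0 rose, and their summed level was 2757 to 3317 CPM in WT-HFD, against 6006 to 7091 CPM in WT-NCD. Of 9 macrophage markers, 8 rose, with a summed level of 2399 to 4153 CPM in WT-HFD, against 900.3 to 1045 CPM in WT-NCD. None of these markers was at 0 in any library. Of 8 adipocyte markers, 5 fell and 0 rose. The part of these transcripts in the results on carriers was not tested. Without WT-HFD 2 and WT-HFD 4, the libraries with most neutrophil transcripts, a single WT-HFD library remained, and calls were lost. A single WT-NCD library, itself with seminal vesicle transcripts, likewise remained without WT-NCD 1 and WT-NCD 2, which had the most of them. Calls lost there were those of Slc25a5, Slc25a11, Slc25a13, Slc25a15, Slc25a22, Slc25a34, Slc25a43 and Slc25a45. No call changed direction in either fit.

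In KO mice, no carrier passed the test of diet. None of the 39 members passed in KO-HFD against KO-NCD by edgeR's quasi-likelihood test, as against 0.0306% of all genes, and 5 members had an unadjusted p under 0.05, as against 9.36% of all genes. They included Slc25a44, which had the smallest p, and Slc25a16, Slc25a20 and Slc25a32. The Wald test of DESeq2 called 3 members, 2 higher, among them Slc25a20, and 1 lower, Slc25a44, where it called 1.9% of all genes. The median log2 fold change of the members was -0.02, with values from -0.47 to 0.60. None of the 14 mitochondrial content genes and none of the 9 macrophage markers passed either, and 0 of both lists had an unadjusted p under 0.05. The macrophage sum was 964 to 2175 CPM in KO-HFD, against 1132 to 1781 CPM in KO-NCD.

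On HFD, more carriers were higher than lower in KO than in WT mice. Of the 39 members, 14 passed in KO-HFD against WT-HFD, 10 higher and 4 lower, whereas 15.7% of all genes passed, 7.99% higher and 7.72% lower. The 4 lower ones were Slc25a24, Slc25a37, Slc25a43 and Slc25a45. The median log2 fold change was 0.12 over the members and 0.02 over all genes. Of the 14 mitochondrial content genes, 9 rose and 0 fell, with a summed level of 4149 to 4776 CPM in KO-HFD, against 2757 to 3317 CPM in WT-HFD. Of the 9 macrophage markers, 6 fell and 0 rose, with a summed level of 964 to 2175 CPM in KO-HFD, against 2399 to 4153 CPM in WT-HFD. All 5 neutrophil markers fell, with a summed level of 13.9 to 19 CPM in KO-HFD, against 23.9 to 489 CPM in WT-HFD, and 3 of 8 adipocyte markers rose and 0 fell. Of the 6 liver genes, 1 rose and 0 fell, with a summed level of 158.6 to 1426 CPM in KO-HFD, against 5.27 to 52 CPM in WT-HFD. The part of these lists was not tested. The count of members was 7 without WT-HFD 4, 8 without KO-HFD 2, 7 without KO-NCD 2 and KO-HFD 2, and 6 without WT-HFD 2 and WT-HFD 4.

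On NCD, carriers that differed were mostly lower in KO than in WT mice. Of the 39 members, 9 passed in KO-NCD against WT-NCD, 1 higher and 8 lower, whereas 13.2% of all genes passed, 5.27% higher and 7.91% lower. The higher one was Slc25a24. Of the mitochondrial content genes, 9 of 14 fell and 0 rose, with a summed level of 4069 to 5167 CPM in KO-NCD, against 6006 to 7091 CPM in WT-NCD. Of the 9 macrophage markers, 1 rose and 0 fell, and their summed level, 1132 to 1781 CPM in KO-NCD, against 900.3 to 1045 CPM in WT-NCD, did not overlap between the groups. Their part was not tested. The WT-NCD libraries are the ones with seminal vesicle transcripts, and all of them hold some, so no fit is free of them. Without WT-NCD 1 and WT-NCD 2, only Slc25a17 still passed, and leaving out WT-NCD 1, WT-NCD 3, KO-NCD 1 or KO-NCD 3 alone left 4 members. With the 8 seminal vesicle genes taken out of the table, 10 members passed.

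The diet by genotype interaction, the change with HFD in KO minus that in WT mice, passed for 16 of the 39 members, 11 positive and 5 negative, and for 17.7% of all genes, 9.12% positive and 8.57% negative. This test uses all 12 libraries and shares them with the comparisons above. The count was 9 without WT-NCD 1 and WT-NCD 2 and 9 without WT-HFD 2 and WT-HFD 4. It was 8 with the replicate number as a block, although the sample titles do not say that the numbers pair libraries. Only WT-HFD 4 has the number 4, so the block fits it apart and WT-HFD rests on WT-HFD 1 and 2. Calls lost with the block can thus come from the loss of WT-HFD 4. They were those of Slc25a3, Slc25a4, Slc25a16, Slc25a25, Slc25a33, Slc25a34, Slc25a43 and Slc25a45. Of the 39 members, 26 passed in at least 1 of the 5 contrasts.

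**Figure D2:**
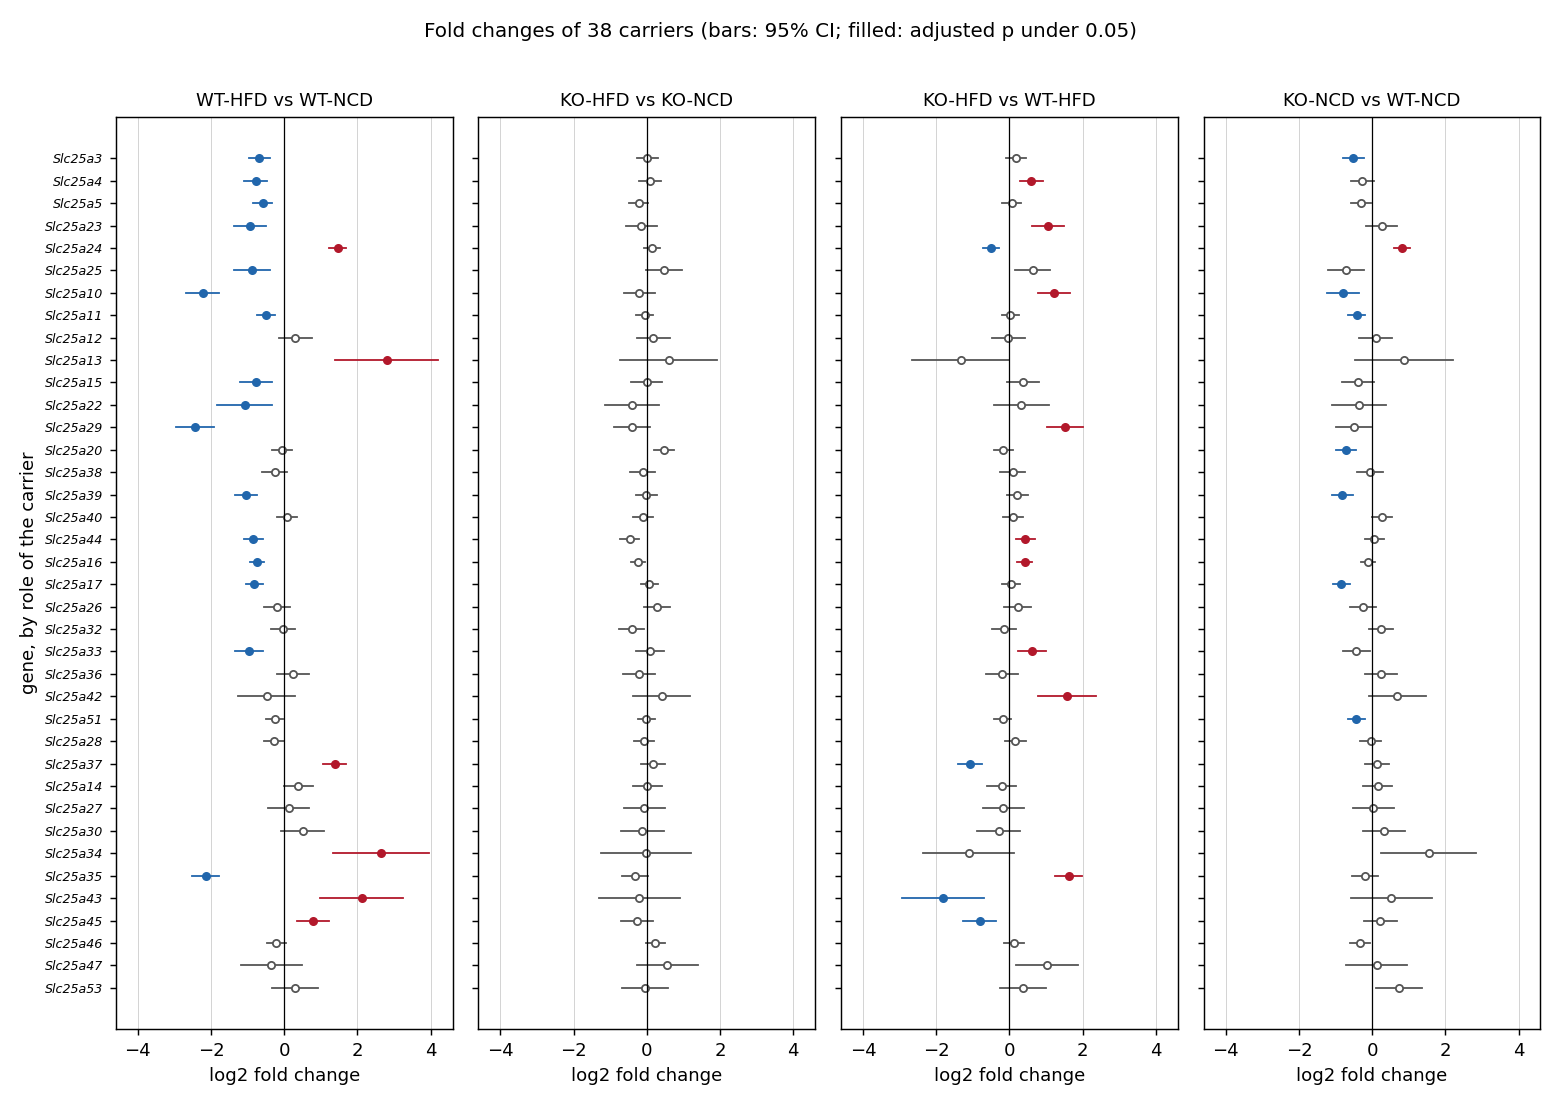
Log2 fold change (horizontal axes, 95% confidence interval as bars) of 38 of the 39 members (rows) in the 4 comparisons. Filled points have an adjusted p under 0.05, red for higher and blue for lower. WT-HFD against WT-NCD holds 22 filled points and KO-HFD against KO-NCD holds 0.

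The carriers of adenine nucleotides and phosphate supply oxidative phosphorylation with ADP and phosphate and set the nucleotide content of the matrix. Their summed level was 1052 to 1161 CPM in KO-HFD and 1089 to 1139 CPM in KO-NCD, against 834 to 964 CPM in WT-HFD and 1245 to 1528 CPM in WT-NCD. All 6 members passed in WT-HFD against WT-NCD, 1 higher and 5 lower, as against 17.6% and 18.4% of all genes. The one that rose was Slc25a24, at chr3:109123149-109168409 (GRCm38), a calcium-regulated exchanger of ATP-Mg for phosphate. It had 78.5, 65.3 and 72 CPM in WT-HFD, against 25.3, 27.7 and 25.3 CPM in WT-NCD. It thus rose 2.75-fold (log2 fold change 1.46, SE 0.10, adjusted p = 5.33e-05). KO libraries had 51.3, 48.6 and 51.6 CPM in KO-HFD, against 50.6, 40.8 and 46.6 CPM in KO-NCD. These overlapped each other and lay below every WT-HFD and above every WT-NCD library. Slc25a24 was therefore lower in KO-HFD than in WT-HFD (log2 fold change -0.51, SE 0.10, adjusted p = 0.0104) and higher in KO-NCD than in WT-NCD (log2 fold change 0.82, SE 0.10, adjusted p = 0.00347). The difference on HFD was lost with the replicate block, and that on NCD without WT-NCD 1 and WT-NCD 2. The interaction passed in every alternative (log2 fold change -1.33, SE 0.14, adjusted p = 0.00223).

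Its relative Slc25a23, a carrier of the same substrates, moved the other way. Slc25a23 had 109, 121 and 90.8 CPM in KO-HFD and 49.6, 66.2 and 39.5 CPM in WT-HFD, so that it was 2.07-fold higher in KO mice on HFD (log2 fold change 1.05, SE 0.19, adjusted p = 0.00781) without overlap. On NCD it had 120.2, 129 and 107 CPM in KO-NCD and 83.1, 98.7 and 115 CPM in WT-NCD, which overlapped. It fell 1.91-fold in WT-HFD against WT-NCD (log2 fold change -0.93, SE 0.19, adjusted p = 0.00387). Both calls held in every alternative run. The third relative, Slc25a25, which is given here after its values were seen, fell in WT-HFD against WT-NCD (log2 fold change -0.88, SE 0.22, adjusted p = 0.0103) and passed for the interaction (log2 fold change 1.35, SE 0.31, adjusted p = 0.0152). The fall was lost without WT-HFD 2 and WT-HFD 4 and with the replicate block (adjusted p up to 0.13), and the interaction in these fits and without WT-NCD 1 and WT-NCD 2 (adjusted p up to 0.0726).

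The ADP/ATP carriers exchange matrix ATP for cytosolic ADP. Slc25a5, the highest member per kb, had 286, 253 and 233 CPM in WT-HFD, against 436, 375 and 349.7 CPM in WT-NCD. It fell by 1.5-fold (log2 fold change -0.59, SE 0.12, adjusted p = 0.00351), and lost the call without WT-NCD 1 and WT-NCD 2 or without WT-HFD 2 and WT-HFD 4. KO libraries had 255, 262 and 290.3 CPM in KO-HFD, against 337, 305 and 298 CPM in KO-NCD. KO-HFD and WT-HFD overlapped, and their log2 difference was 0.07 with a 95% confidence interval of -0.20 to 0.33. Slc25a4 had 248, 235 and 274 CPM in KO-HFD, against 186, 168 and 146 CPM in WT-HFD. These did not overlap, and Slc25a4 was 1.51-fold higher in KO-HFD (log2 fold change 0.60, SE 0.14, adjusted p = 0.0192, and adjusted p from 0.0693 to 0.0772 without WT-HFD 4 or KO-HFD 3). The call was also lost with the replicate block, without KO-NCD 2 and KO-HFD 2, and without WT-HFD 2 and WT-HFD 4. On NCD it had 230.1, 246 and 238 CPM in KO-NCD, against 346, 247 and 264 CPM in WT-NCD, and WT-NCD 1 was the high library. It fell in WT-HFD against WT-NCD (log2 fold change -0.78, SE 0.14, adjusted p = 0.00184), a call lost without WT-HFD 2 and WT-HFD 4, and passed for the interaction (log2 fold change 0.86, SE 0.20, adjusted p = 0.015), which was lost without either pair of libraries, WT-NCD 1 and 2 or WT-HFD 2 and 4, and with the replicate block (adjusted p up to 0.111).

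The phosphate carrier Slc25a3, which brings in the phosphate that ATP synthase uses, had 308, 282 and 309.6 CPM in WT-HFD, against 552, 422 and 469.6 CPM in WT-NCD. It fell 1.6-fold there (log2 fold change -0.68, SE 0.13, adjusted p = 0.00242), a call lost without WT-HFD 2 and WT-HFD 4. KO libraries, at 315, 315 and 387 CPM in KO-HFD and 310.4, 355 and 346 CPM in KO-NCD, lay below every WT-NCD library. Slc25a3 was lower in KO-NCD than in WT-NCD (log2 fold change -0.51, SE 0.13, adjusted p = 0.0292), but not when single libraries were left out (adjusted p from 0.0613 to 0.0985 without WT-NCD 1, WT-NCD 3, KO-NCD 1 or KO-NCD 3). The interaction passed (log2 fold change 0.69, SE 0.18, adjusted p = 0.0262), likewise with exceptions (adjusted p from 0.0546 to 0.0685 without WT-NCD 1, WT-HFD 2, KO-NCD 1, KO-NCD 3 or KO-HFD 3). It was also lost with the replicate block, without WT-NCD 1 and WT-NCD 2, and without WT-HFD 2 and WT-HFD 4.

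The dicarboxylate carrier Slc25a10, at chr11:120491837-120501161, exchanges malate and succinate for phosphate and was among the members that changed most. It had 162, 156 and 118 CPM in WT-HFD, against 730.3, 661 and 649 CPM in WT-NCD. It fell 4.67-fold in WT mice (log2 fold change -2.22, SE 0.20, adjusted p = 8.32e-05). KO libraries had 244, 383 and 387 CPM in KO-HFD, against 318, 431 and 418 CPM in KO-NCD, and these overlapped, with KO-HFD 1 the lowest. All KO libraries lay above every WT-HFD library and below every WT-NCD library. Slc25a10 was 2.32-fold higher in KO-HFD than in WT-HFD (log2 fold change 1.21, SE 0.20, adjusted p = 0.00481), a call lost without WT-HFD 2 and WT-HFD 4. It was 1.75-fold lower in KO-NCD than in WT-NCD (log2 fold change -0.81, SE 0.20, adjusted p = 0.0277), and this call was lost when single libraries were left out (adjusted p from 0.0558 to 0.093 without WT-NCD 1, WT-NCD 3, KO-NCD 1 or KO-NCD 3). The interaction was 2.02 on the log2 scale (SE 0.28, adjusted p = 0.00303) and held in every alternative run. The oxoglutarate carrier Slc25a11, which exchanges malate for oxoglutarate and is given here after its values were seen, fell in WT-HFD against WT-NCD (log2 fold change -0.50, SE 0.11, adjusted p = 0.00452, lost without WT-NCD 1 and WT-NCD 2 and without WT-HFD 2 and WT-HFD 4, with adjusted p up to 0.127) and was lower in KO-NCD than in WT-NCD (log2 fold change -0.42, SE 0.11, adjusted p = 0.0285, and adjusted p from 0.0533 to 0.0931 without WT-NCD 1, WT-NCD 3, KO-NCD 1, KO-NCD 2 or KO-NCD 3).

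Of the 5 carriers of aspartate, glutamate and basic amino acids, 1 rose and 3 fell in WT-HFD against WT-NCD. Of all genes, 17.6% rose and 18.4% fell there. Slc25a29, at chr12:108825878-108835876, a carrier of basic amino acids such as arginine and lysine, fell most of all members. It had 1.82, 3.07 and 2.38 CPM in WT-HFD, against 15.1, 13.3 and 11 CPM in WT-NCD, a 5.4-fold fall (log2 fold change -2.43, SE 0.23, adjusted p = 8.77e-05). KO libraries had 6.16, 8.23 and 6.61 CPM in KO-HFD, against 7.85, 9.15 and 10.7 CPM in KO-NCD. On HFD, Slc25a29 was thus 2.88-fold higher in KO mice with no overlap (log2 fold change 1.53, SE 0.22, adjusted p = 0.00348). On NCD the KO libraries lay below the WT libraries without the difference passing (log2 fold change -0.51, SE 0.22, adjusted p = 0.141). The interaction passed (log2 fold change 2.03, SE 0.31, adjusted p = 0.00367).

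A pair of amino acid carriers, given here after their values were seen, had 1 WT-HFD library apart from the others. Slc25a13, an aspartate-glutamate carrier (citrin) that is high in liver, had 23.6, 5.49 and 5.92 CPM in WT-HFD, against 2.04, 1.93 and 1.06 CPM in WT-NCD. WT-HFD 1 stood far above the others. Slc25a13 rose 6.95-fold (log2 fold change 2.80, SE 0.64, adjusted p = 0.00644), and its log2 fold change was 1.77 without WT-HFD 1. The call was lost without WT-NCD 1 and WT-NCD 2 (adjusted p = 0.0757). The glutamate carrier Slc25a22 had 21.7, 67.7 and 78 CPM in WT-HFD, against 119, 120.3 and 115 CPM in WT-NCD, and there WT-HFD 1 was the low library. Slc25a22 fell (log2 fold change -1.08, SE 0.34, adjusted p = 0.03), with a log2 fold change of -0.70 without WT-HFD 1, and adjusted p from 0.0623 to 0.0693 without WT-NCD 1, WT-NCD 2 or WT-NCD 3. This call was also lost with only the groups compared and without WT-NCD 1 and WT-NCD 2. WT-HFD 1 was also the library with the highest macrophage sum, 4153 CPM, against 2399 and 3053 CPM in WT-HFD 2 and 4. It had the highest liver sum of the group as well, 52 CPM, against 5.34 and 5.27 CPM in WT-HFD 2 and 4. The part of either sum was not tested. In KO-HFD, Slc25a13 was at 2.6, 7.46 and 3.79 CPM, with the highest value in the library with the most liver transcripts, KO-HFD 2. The ornithine carrier Slc25a15, which serves the urea cycle and was likewise chosen afterwards, had 15.7, 14.8 and 15.1 CPM in WT-HFD, against 27, 23.9 and 26.6 CPM in WT-NCD, and fell as well (log2 fold change -0.77, SE 0.20, adjusted p = 0.0117), a call lost without WT-NCD 1 and WT-NCD 2 and without WT-HFD 2 and WT-HFD 4 (adjusted p up to 0.153). In KO mice it had 16.6, 24.9 and 17.7 CPM in KO-HFD, against 15.7, 26.1 and 17.6 CPM in KO-NCD. The second library, with the most liver transcripts of its group, was the highest in both groups.

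**Figure D3:**
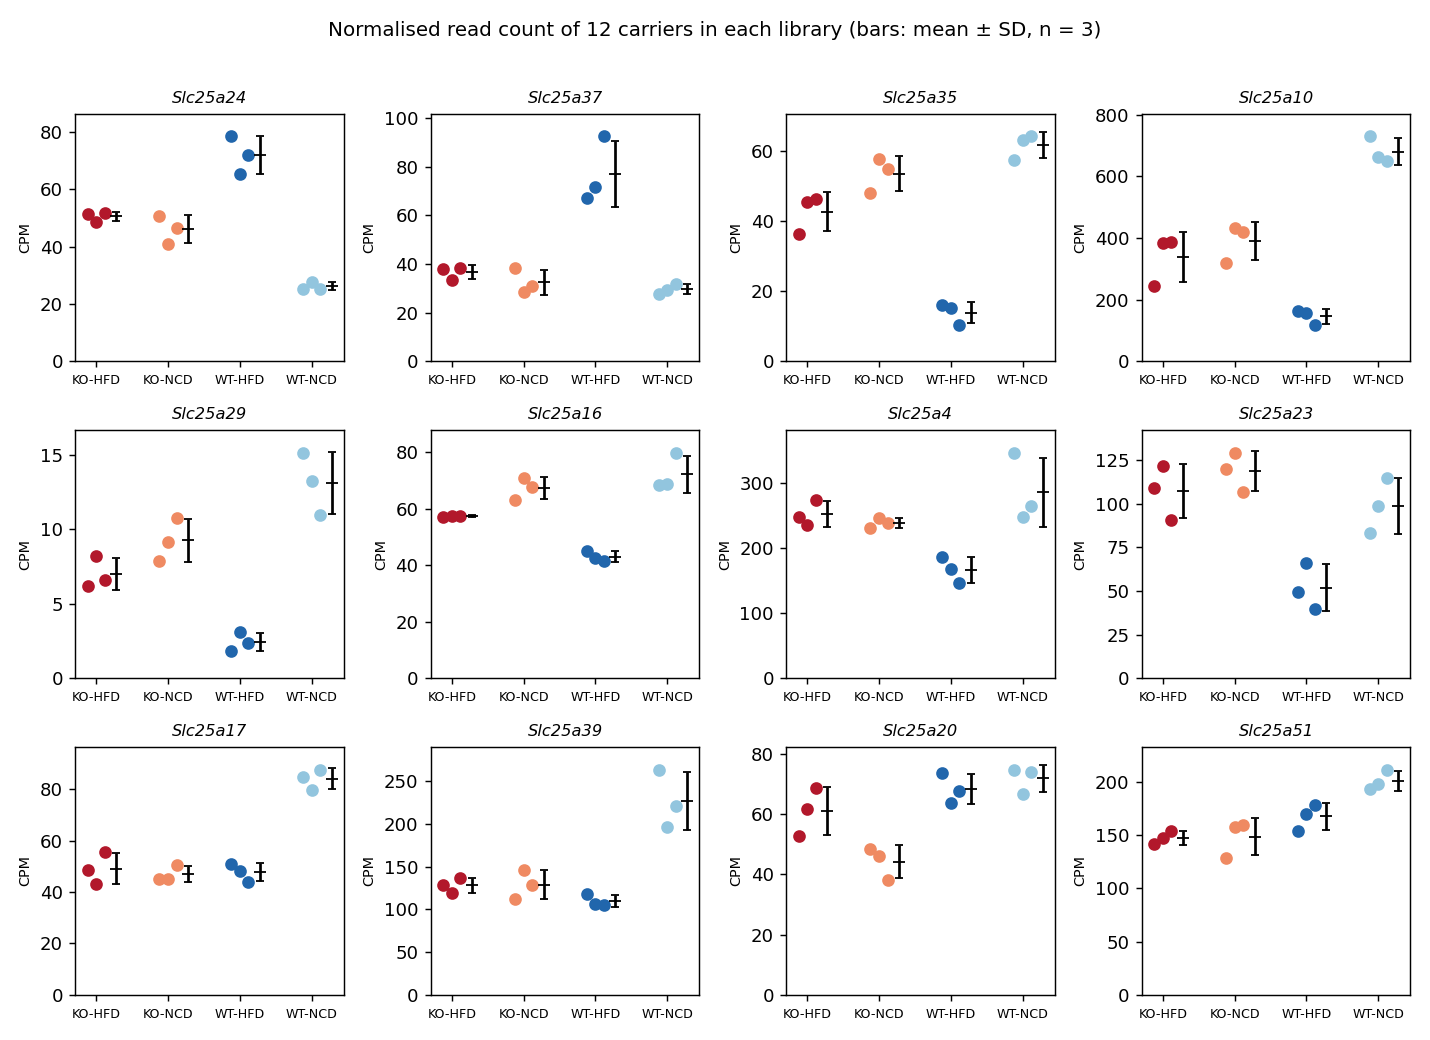
Level of 12 members (CPM, vertical axes starting at 0) in each library, by group. Points are libraries and the black mark is the mean ± SD (n = 3). Slc25a24 and Slc25a37 are highest in WT-HFD, Slc25a35, Slc25a10, Slc25a29 and Slc25a16 are lowest there, and Slc25a17 and Slc25a39 are highest in WT-NCD.

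The stretches before the starts of Slc25a10 and Slc25a29, the members with the largest falls in WT mice, and of Slc25a24, the riser with the smallest p, are shown because these genes moved in opposite directions in the same libraries. They are the 250 bases before each start on GRCm38.p6, as annotated by RefSeq, with matches to the motifs named below in capitals.
Slc25a10 (chr11:120491587-120491836, plus strand): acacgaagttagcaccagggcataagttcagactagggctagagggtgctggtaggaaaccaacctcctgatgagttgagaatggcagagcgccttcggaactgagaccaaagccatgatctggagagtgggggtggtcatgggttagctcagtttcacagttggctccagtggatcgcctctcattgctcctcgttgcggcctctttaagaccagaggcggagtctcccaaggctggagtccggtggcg
Slc25a29 (chr12:108835877-108836126, minus strand): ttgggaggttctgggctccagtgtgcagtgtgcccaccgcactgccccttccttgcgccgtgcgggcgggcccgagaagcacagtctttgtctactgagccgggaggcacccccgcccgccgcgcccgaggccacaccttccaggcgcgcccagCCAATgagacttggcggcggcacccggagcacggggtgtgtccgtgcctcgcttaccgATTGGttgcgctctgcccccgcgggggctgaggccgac
Slc25a24 (chr3:109122899-109123148, plus strand): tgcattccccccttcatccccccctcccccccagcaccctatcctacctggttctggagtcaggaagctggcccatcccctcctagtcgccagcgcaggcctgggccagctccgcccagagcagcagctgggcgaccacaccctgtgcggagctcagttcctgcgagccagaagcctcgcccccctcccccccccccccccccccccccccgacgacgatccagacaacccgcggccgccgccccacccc
Matches were searched on both strands for the NRF1 core GCGCATGC, the ERR extended half-site TNAAGGTCA, the E-box CACGTG, the SREBP site TCACNCCAC, the PU.1 site GAGGAAGT and the CCAAT box (CCAAT). Hits of different motifs were counted separately, whether or not they overlapped. The CCAAT box was found 2 times before Slc25a29, 96 and 38 bases before the start, and none of the 6 motifs before Slc25a10 or Slc25a24. Over the table, 30 of the 39 members had 39 stretches of this length, and the CCAAT box was in 19 of them (48.7%), against 33.8% of 32851 stretches of all genes. The E-box was in 6 (15.4%), against 6.02%. The NRF1, ERR, SREBP and PU.1 letters were in 0 of the members' stretches, against 2.26%, 1.14%, 1.05% and 2.44% of all. A match is a description of these letters, and no match says only that they are not in this window.

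Slc25a20, the carnitine-acylcarnitine carrier that brings long-chain fatty acids in for oxidation, had 48.5, 46.1 and 38.1 CPM in KO-NCD, against 74.7, 66.8 and 74 CPM in WT-NCD. It was 1.62-fold lower in KO mice on NCD (log2 fold change -0.70, SE 0.12, adjusted p = 0.00928), a call lost without WT-NCD 1 and WT-NCD 2. On HFD it had 52.8, 61.7 and 68.8 CPM in KO-HFD, against 73.7, 63.8 and 67.7 CPM in WT-HFD, which overlapped. Every KO-HFD library was above every KO-NCD library, but the difference did not pass (log2 fold change 0.47, SE 0.12, adjusted p = 0.248), though it did by the Wald test of DESeq2 (adjusted p = 0.0342). In WT mice the 95% confidence interval of the log2 change with diet was -0.34 to 0.20. Among the 5 enzymes of the carnitine shuttle, Cpt2, which frees acyl groups from carnitine in the matrix, fell in WT-HFD against WT-NCD (log2 fold change -1.25, SE 0.15, adjusted p = 1.80e-04), was higher in KO-HFD than in WT-HFD (log2 fold change 0.54, SE 0.14, adjusted p = 0.0307) and lower in KO-NCD than in WT-NCD (log2 fold change -0.81, SE 0.14, adjusted p = 0.00928). In WT mice, 2 of the 5 rose and 2 fell with diet, as against 17.6% and 18.4% of all genes.

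Slc25a39 imports glutathione, the main thiol antioxidant, into mitochondria. It had 118, 107 and 105 CPM in WT-HFD, against 263, 197 and 221 CPM in WT-NCD, and fell 2.06-fold (log2 fold change -1.05, SE 0.13, adjusted p = 2.73e-04). KO libraries had 128, 119 and 136 CPM in KO-HFD, against 113, 146 and 128 CPM in KO-NCD. KO-NCD overlapped WT-HFD, KO-HFD lay slightly above WT-HFD without the difference passing (adjusted p = 0.267), and both KO groups lay below every WT-NCD library. Slc25a39 was 1.76-fold lower in KO-NCD than in WT-NCD (log2 fold change -0.82, SE 0.13, adjusted p = 0.00665), a call lost without WT-NCD 1 and WT-NCD 2, and the interaction passed (log2 fold change 1.03, SE 0.18, adjusted p = 0.00622) except without WT-HFD 2 and WT-HFD 4. Its close relative Slc25a40 passed in no contrast. Slc25a44, a carrier of branched-chain amino acids known from brown fat and given here after its values were seen, fell in WT-HFD against WT-NCD (log2 fold change -0.84, SE 0.12, adjusted p = 4.84e-04). It was higher in KO-HFD than in WT-HFD (log2 fold change 0.43, SE 0.12, adjusted p = 0.0343, and adjusted p from 0.0745 to 0.128 without WT-HFD 2, WT-HFD 4, KO-HFD 1 or KO-HFD 2). This call was also lost with the replicate block and with only the groups compared. In KO mice it had 78.6, 78.9 and 64.9 CPM in KO-HFD, against 92.6, 107 and 109 CPM in KO-NCD, without overlap. That difference did not pass (log2 fold change -0.47, SE 0.12, adjusted p = 0.234), though it did by the Wald test of DESeq2 (adjusted p = 0.0241). The interaction did not pass (adjusted p = 0.147). Of 4 enzymes that begin branched-chain amino acid breakdown, 4 fell in WT-HFD against WT-NCD, as against 18.4% of all genes. In KO-HFD, 3 were higher than in WT-HFD, as against 7.99% of all genes. Bcat2, the mitochondrial transaminase, had log2 fold changes of -1.73 (SE 0.22, adjusted p = 2.83e-04) in WT mice with diet and 1.18 (SE 0.22, adjusted p = 0.00765) in KO-HFD over WT-HFD.

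Of the carriers of cofactors and their precursors, Slc25a16, linked to coenzyme A import through its yeast counterpart, had 45.2, 42.6 and 41.4 CPM in WT-HFD, against 68.3, 68.7 and 79.8 CPM in WT-NCD, and fell 1.68-fold (log2 fold change -0.75, SE 0.09, adjusted p = 1.88e-04). It had 56.9, 57.6 and 57.5 CPM in KO-HFD, against 63, 71 and 67.8 CPM in KO-NCD. The KO-HFD libraries lay below the KO-NCD libraries without the difference passing (adjusted p = 0.435). They differed little from each other and lay above every WT-HFD library (log2 fold change 0.41, SE 0.09, adjusted p = 0.013). This call was lost when single libraries were left out (adjusted p from 0.0504 to 0.0528 without WT-HFD 4 or KO-HFD 2). It was also lost with the replicate block, without KO-NCD 2 and KO-HFD 2, and without WT-HFD 2 and WT-HFD 4. The interaction passed (log2 fold change 0.52, SE 0.12, adjusted p = 0.018), with adjusted p = 0.0523 without KO-NCD 1. It was also lost with the replicate block and without WT-HFD 2 and WT-HFD 4.

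Slc25a17, the peroxisomal carrier of coenzyme A, FAD and NAD, showed a different pattern. It had 51.1, 48.1 and 44.1 CPM in WT-HFD, against 85, 79.6 and 87.7 CPM in WT-NCD, and fell 1.76-fold (log2 fold change -0.82, SE 0.11, adjusted p = 3.32e-04). In KO mice it had 48.7, 43.3 and 55.5 CPM in KO-HFD, against 45.2, 45.1 and 50.7 CPM in KO-NCD. WT-NCD alone was high, and the other 3 groups overlapped. Slc25a17 was 1.79-fold lower in KO-NCD than in WT-NCD (log2 fold change -0.84, SE 0.11, adjusted p = 0.00352), the one NCD call that held in every alternative. Its interaction held in all of them too (log2 fold change 0.88, SE 0.15, adjusted p = 0.00522). None of these alternatives frees WT-NCD of seminal vesicle transcripts.

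Slc25a51, the NAD carrier, had 129, 158 and 159 CPM in KO-NCD, against 193, 198 and 211 CPM in WT-NCD, and was 1.35-fold lower (log2 fold change -0.43, SE 0.11, adjusted p = 0.027), a call lost when single libraries were left out (adjusted p from 0.0568 to 0.0885 without WT-NCD 1, WT-NCD 3, KO-NCD 1 or KO-NCD 3). It had 141, 147 and 154 CPM in KO-HFD, against 154, 169 and 178 CPM in WT-HFD, and this difference did not pass (adjusted p = 0.245). Slc25a33, which carries pyrimidine nucleotides, and Slc25a42, a coenzyme A carrier, are given after their values were seen. Slc25a33 fell in WT-HFD against WT-NCD (log2 fold change -0.97, SE 0.17, adjusted p = 0.00184), a call lost without WT-HFD 2 and WT-HFD 4. It was higher in KO-HFD than in WT-HFD (log2 fold change 0.62, SE 0.17, adjusted p = 0.0367, and adjusted p from 0.0621 to 0.116 without WT-HFD 2, WT-HFD 4, KO-HFD 1, KO-HFD 2 or KO-HFD 3). This call was also lost with the replicate block, without KO-NCD 2 and KO-HFD 2, and without WT-HFD 2 and WT-HFD 4. Slc25a42 had 40.4, 109 and 85.1 CPM in KO-HFD, against 37.2, 25.9 and 15.8 CPM in WT-HFD. Its KO-HFD libraries spread widely, with KO-HFD 1 just above the highest WT-HFD library and KO-HFD 2, the library with the most liver transcripts, the highest. All KO-HFD libraries held more liver transcripts than any WT-HFD library. It was higher in KO-HFD (log2 fold change 1.57, SE 0.36, adjusted p = 0.0181), with adjusted p from 0.0652 to 0.0691 without WT-HFD 4 or KO-HFD 2. The Slc25a42 call was also lost with only the groups compared and with the replicate block. The same was so without KO-NCD 2 and KO-HFD 2 and without WT-HFD 2 and WT-HFD 4. Of 5 mitochondrial folate enzymes, 1 rose and 1 fell in WT-HFD against WT-NCD, as against 17.6% and 18.4% of all genes. In KO-HFD against WT-HFD, 0 passed, as against 15.7% of all genes. There, 4 had an unadjusted p under 0.05, as against 33.7% of all genes.

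The mitoferrins bring iron in for haem and iron-sulphur clusters. Slc25a37 (mitoferrin 1), best known for its role in red cell precursors, had 67.2, 71.5 and 92.5 CPM in WT-HFD, against 27.7, 29.5 and 31.7 CPM in WT-NCD. It rose 2.6-fold (log2 fold change 1.38, SE 0.15, adjusted p = 1.29e-04). KO libraries had 38.1, 33.3 and 38.4 CPM in KO-HFD, against 38.3, 28.6 and 30.7 CPM in KO-NCD, which overlapped. On HFD it was 2.11-fold lower in KO mice, with no overlap (log2 fold change -1.07, SE 0.15, adjusted p = 0.00257), and on NCD the log2 difference was 0.13 with a 95% confidence interval of -0.18 to 0.45. The interaction passed (log2 fold change -1.21, SE 0.20, adjusted p = 0.00501), with the exception of the fit without WT-NCD 1 and WT-NCD 2. WT-HFD 4 had the highest Slc25a37 and also the highest neutrophil sum, 489 CPM, and WT-HFD 1, with a neutrophil sum of 23.9 CPM, had 67.2 CPM of Slc25a37. Without WT-HFD 2 and WT-HFD 4, which leaves WT-HFD 1 as the single WT-HFD library, the rise and the difference on HFD kept their direction. The part of neutrophils in Slc25a37 was not tested. Of 6 haem and iron-sulphur genes, 5 fell in WT-HFD against WT-NCD (18.4% of all genes) and 0 rose (17.6%). In KO-HFD, 3 were higher than in WT-HFD (7.99% of all genes). Abcb10, an inner membrane transporter of erythroid and other cells, had log2 fold changes of -0.76 (SE 0.08, adjusted p = 1.15e-04) and 0.46 (SE 0.08, adjusted p = 0.00554) in these comparisons.

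Among members with no agreed substrate, Slc25a35 changed as much as Slc25a10. It lies at chr11:68968096-68972516 and had 16.1, 15.2 and 10.4 CPM in WT-HFD, against 57.3, 63.1 and 64.2 CPM in WT-NCD, a 4.42-fold fall (log2 fold change -2.15, SE 0.17, adjusted p = 5.33e-05). KO libraries had 36.2, 45.4 and 46.2 CPM in KO-HFD, against 48.1, 57.7 and 54.7 CPM in KO-NCD. These were slightly apart, but the difference did not pass (log2 fold change -0.33, SE 0.16, adjusted p = 0.564). On HFD, Slc25a35 was 3.06-fold higher in KO mice (log2 fold change 1.61, SE 0.16, adjusted p = 0.00114), the member with the smallest p in that comparison, and the interaction passed (log2 fold change 1.82, SE 0.23, adjusted p = 0.00282). Rangrf on the opposite strand covers 31.3% of the exon bases of Slc25a35, and since the strand used in counting is not stated, reads from the pair cannot be told apart. Opposite-strand overlaps covered 14.9% of Slc25a33, 6.6% of Slc25a10 and 6.33% of Slc25a37, and 8.92% or less of any other member.

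The other risers of the orphan group, Slc25a34, Slc25a43 and Slc25a45, are given after their values were seen. Slc25a34 had 1.08, 0.959 and 1.1 CPM in WT-HFD, against 0.121, 0.198 and 0.179 CPM in WT-NCD (log2 fold change 2.64, SE 0.60, adjusted p = 0.00631). Its mean was under 0.5 CPM in the other groups, so it is a member only through WT-HFD. Slc25a43 had 2.92, 1.6 and 1.49 CPM in WT-HFD, against 0.345, 0.626 and 0.406 CPM in WT-NCD (log2 fold change 2.12, SE 0.52, adjusted p = 0.00903). Slc25a45 had 27.8, 27.7 and 38.9 CPM in WT-HFD, against 18.8, 17.5 and 18.4 CPM in WT-NCD (log2 fold change 0.79, SE 0.20, adjusted p = 0.0112). In each, the WT groups did not overlap. All 3 calls were lost without WT-NCD 1 and WT-NCD 2, and those of Slc25a34 and Slc25a45 also without WT-HFD 2 and WT-HFD 4, with adjusted p up to 0.131 for Slc25a34, 0.104 for Slc25a43 and 0.146 for Slc25a45. Slc25a43 and Slc25a45 were lower in KO-HFD than in WT-HFD (log2 fold change -1.81, SE 0.51, adjusted p = 0.0378, and log2 fold change -0.82, SE 0.20, adjusted p = 0.0225). The call of Slc25a43 was lost on leaving out any of the 6 libraries compared, and that of Slc25a45 without WT-HFD 4, KO-HFD 1 or KO-HFD 2 (adjusted p from 0.0651 to 0.0917). Both were also lost with only the groups compared and with the replicate block. The same was so without KO-NCD 2 and KO-HFD 2 and without WT-HFD 2 and WT-HFD 4. Slc25a47, a carrier of liver, reached 7.63 CPM in KO-HFD 2 and 4.23 CPM in KO-NCD 2, the libraries with the most liver transcripts, and it passed in no contrast.

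The 13 members that passed in no contrast had mean levels from 2.4 CPM (Slc25a53, an orphan) to 79.2 CPM (Slc25a46, which acts in the shape and fusion of mitochondria from the outer membrane). Slc25a46 was at 64.5, 71.9 and 74.1 CPM in KO-NCD, against 88, 82.1 and 94.2 CPM in WT-NCD, which did not overlap, and missed the threshold (log2 fold change -0.33, SE 0.12, adjusted p = 0.0919). The aspartate-glutamate carrier Slc25a12 (aralar) was at 24.4, 22.4 and 28.7 CPM in WT-HFD, against 20.8, 26.6 and 13.6 CPM in WT-NCD, and its log2 difference had a 95% confidence interval of -0.14 to 0.76. Slc25a28 (mitoferrin 2) was at 39.3, 40.1 and 45.7 CPM in WT-HFD, against 57.4, 49.6 and 43.7 CPM in WT-NCD, with an interval of -0.55 to 0.01. For the glycine carrier Slc25a38, which serves haem synthesis, the interval was -0.60 to 0.09 in the same comparison, and for the S-adenosylmethionine carrier Slc25a26 it was -0.56 to 0.17. The folate and FAD carrier Slc25a32 had 13.3, 14.2 and 13.1 CPM in KO-HFD, against 14.6, 23 and 16.5 CPM in KO-NCD, with KO-NCD 2 high and no overlap between the groups (log2 fold change -0.41, SE 0.15, adjusted p = 0.425). Of the uncoupling-protein-like members, which are most abundant in brain or kidney, Slc25a30 was the highest and had 17.1, 16.8 and 17.6 CPM in WT-HFD, against 8.68, 14.9 and 12.7 CPM in WT-NCD, without overlap (log2 fold change 0.50, SE 0.26, adjusted p = 0.164). Slc25a14, Slc25a27, Slc25a36, a pyrimidine nucleotide carrier, and Slc25a40 were the others, besides Slc25a47. Over the 13 members, log2 fold changes ran from -0.35 to 0.50 in WT-HFD over WT-NCD, from -0.41 to 0.56 in KO-HFD over KO-NCD, from -0.30 to 1.03 in KO-HFD over WT-HFD and from -0.33 to 0.72 in KO-NCD over WT-NCD. The median SD of the log2 level between libraries of a group was 0.17 over the members and 0.22 over all genes in KO-HFD. It was 0.18 over the members and 0.19 over all genes in KO-NCD, 0.17 over the members and 0.23 over all genes in WT-HFD, and 0.17 over the members and 0.22 over all genes in WT-NCD.

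**Figure D4:**
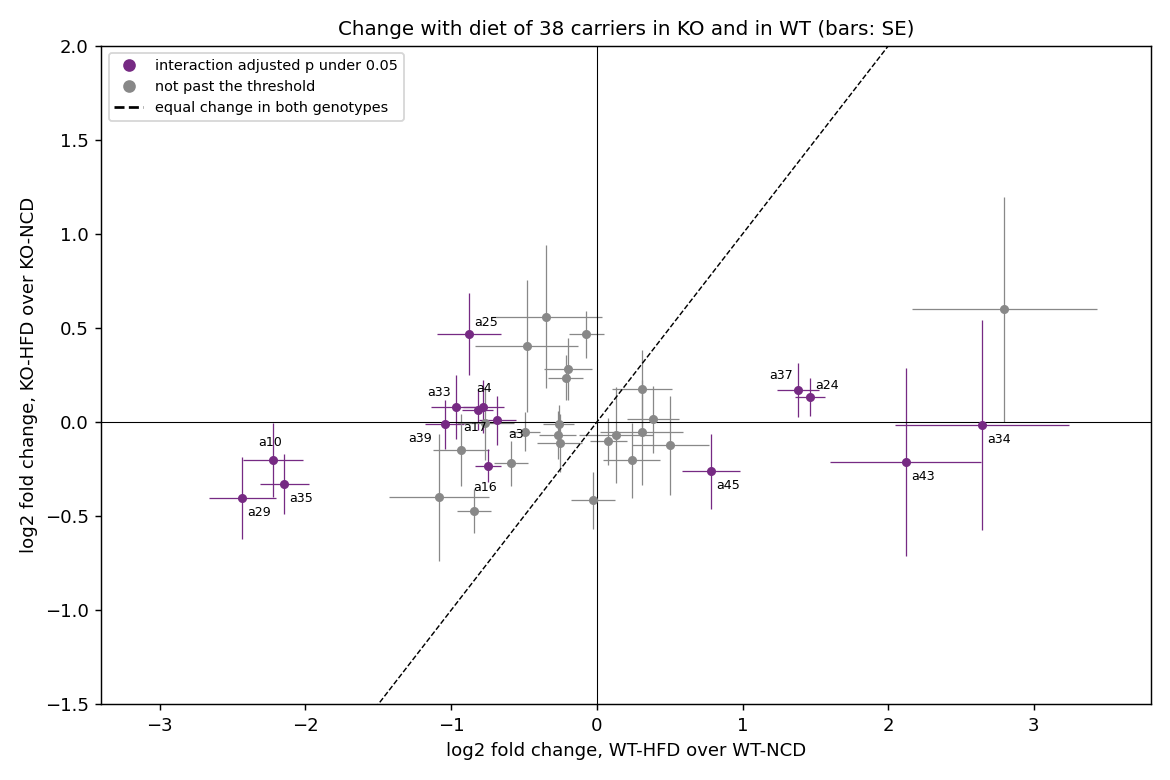
Log2 fold change with HFD in KO mice (vertical axis) against that in WT mice (horizontal axis) for 38 of the 39 members, with SE as bars. The axes have different scales, and the dashed line marks equal change. The 15 purple points, labelled without the prefix Slc25, have an interaction with adjusted p under 0.05 and lie off that line, with values from -0.40 (Slc25a29) to 0.47 (Slc25a25) on the vertical axis.

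Close relatives did not keep 1 ratio across groups. The log2 ratio of Slc25a24 to Slc25a23 was -1.09, -1.32 and -0.82 in KO-HFD and -1.25, -1.66 and -1.20 in KO-NCD, against 0.66, -0.02 and 0.87 in WT-HFD and -1.71, -1.83 and -2.18 in WT-NCD. Counts of Slc25a24 were thus near or above those of Slc25a23 in WT-HFD alone. The log2 ratio of Slc25a37 to Slc25a28 was -0.14, -0.59 and -0.31 in KO-HFD and -0.53, -0.65 and -0.60 in KO-NCD, against 0.77, 0.84 and 1.02 in WT-HFD and -1.05, -0.75 and -0.46 in WT-NCD, above 0 only in the WT-HFD libraries. For Slc25a40 over Slc25a39 it was -3.15 to -2.93 in KO-HFD and -3.01 to -2.77 in KO-NCD, against -3.09 to -2.75 in WT-HFD and -4.23 to -3.89 in WT-NCD, and WT-NCD was the group apart. For the ADP/ATP carriers, Slc25a4 over Slc25a5, it was -0.04, -0.16 and -0.08 in KO-HFD and -0.55, -0.31 and -0.32 in KO-NCD, against -0.62, -0.59 and -0.67 in WT-HFD and -0.33, -0.60 and -0.40 in WT-NCD, so that Slc25a4 came nearest to Slc25a5 in KO-HFD. These ratios are descriptions with no test, and as ratios of counts they do not compare levels per length.

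**Figure D5:**
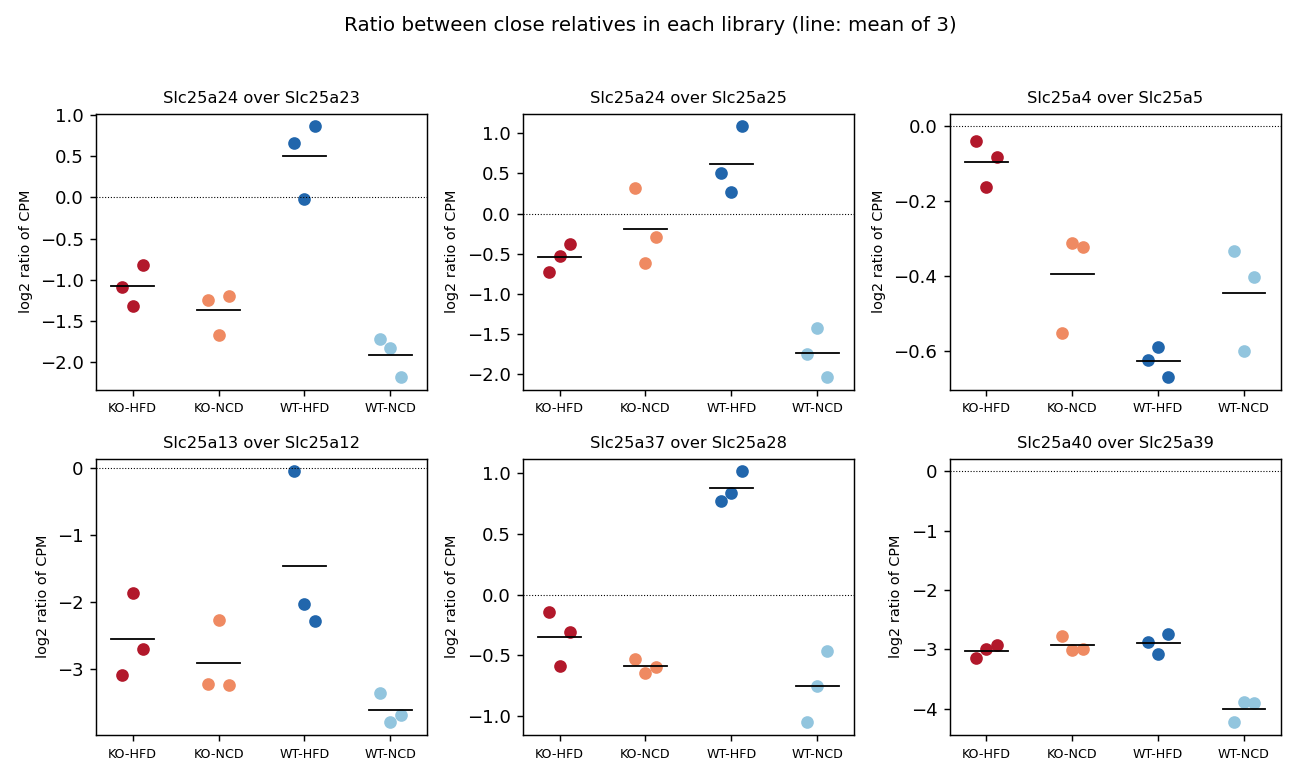
Log2 ratio of the CPM of a member to that of a close relative (vertical axes) in each library, by group, for 6 pairs. The line is the mean of 3 libraries. The ratios of Slc25a24 to Slc25a23 and Slc25a37 to Slc25a28 are highest in WT-HFD, and that of Slc25a4 to Slc25a5 in KO-HFD.

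Relatives of the family under other symbols showed both directions. Ucp2, a carrier of the uncoupling protein branch that is abundant in macrophages, had 906, 615 and 774 CPM in WT-HFD, against 219, 228 and 169 CPM in WT-NCD, and rose 3.72-fold (log2 fold change 1.90, SE 0.25, adjusted p = 3.13e-04). It was at 286, 257 and 321 CPM in KO-HFD, lower than in WT-HFD (log2 fold change -1.41, SE 0.24, adjusted p = 0.00589). Ucp3, from the same branch, fell in WT-HFD against WT-NCD (log2 fold change -1.46, SE 0.22, adjusted p = 6.72e-04), and so did Mtch2, an outer membrane protein that inserts other proteins (log2 fold change -1.06, SE 0.14, adjusted p = 3.11e-04). Mtch1 passed in none of the 4 comparisons, and Ucp1, the heat-producing carrier of brown fat, was at most 0.18 CPM and was not tested. Of 13 genes of carrier import and outer membrane pores, 0 rose and 8 fell in WT-HFD against WT-NCD, as against 17.6% and 18.4% of all genes. In KO-NCD, 6 were lower than in WT-NCD, as against 7.91% of all genes. In KO-HFD against WT-HFD, 0 passed and 3 of the 13 had an unadjusted p under 0.05, as against 33.7% of all genes. Timm10, a chaperone that escorts carriers to the inner membrane, had a log2 fold change of -0.82 (SE 0.14, adjusted p = 0.00131) in WT mice with diet.

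Of 6 genes of the mitochondrial pyruvate carrier and of citrate and malate handling, 6 fell in WT-HFD against WT-NCD, with a median log2 fold change of -2.71. Acly, which splits exported citrate for fatty acid synthesis, had 208, 191 and 174 CPM in WT-HFD, against 3044, 3562 and 4044 CPM in WT-NCD (log2 fold change -4.22, SE 0.32, adjusted p = 5.33e-05). Mpc1, a subunit of the pyruvate carrier, fell as well (log2 fold change -2.20, SE 0.19, adjusted p = 6.91e-05). Of the 6 genes, 4 were higher in KO-HFD than in WT-HFD and 6 were lower in KO-NCD than in WT-NCD. The shares of all genes were 18.4% for the fall in WT mice, and 7.99% and 7.91% for these differences. Me1, the cytosolic malic enzyme, was lower by 7.12-fold in KO-NCD (log2 fold change -2.83, SE 0.32, adjusted p = 0.00269). Of 4 malate-aspartate shuttle enzymes, 2 rose and 2 fell in WT-HFD against WT-NCD, as against 17.6% and 18.4% of all genes. Got1, the cytosolic transaminase, rose (log2 fold change 1.08, SE 0.18, adjusted p = 0.00114) and Mdh1, the cytosolic malate dehydrogenase, fell (log2 fold change -1.78, SE 0.23, adjusted p = 2.87e-04).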

How the data were processed

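RNA was sequenced from gWAT of 12 libraries with a stranded mRNA kit per the labels. The deposited values are raw read counts per gene, made by the authors with Trimmomatic, HISAT2 2.1.0 and StringTie 1.3.4d on mm10 (GRCm38), per the submitters' processing notes, which also name bcl2fastq 2.20.0 and DESeq2. The strand used in counting is not given in the sources used here. Entrez IDs were named through RefSeq's GRCm38.p6 table, which matched 19745 of 19792. Columns were matched to groups by name, and the column called WT-HFD 4, a number that no sample label carries, was used as a WT-HFD library by its group name. Each library holds 47185990 to 73167755 counts.

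Counts were fitted in R 4.3.3 with edgeR 4.0.16 (TMM, filterByExpr with a minimum count of 10, quasi-likelihood test, 4 group means over all 12 libraries). P-values were adjusted by Benjamini-Hochberg over 16352 genes, and called means an adjusted p under 0.05. Standard errors were the log2 fold change over the square root of F, and fold changes carry edgeR's prior count. The script was tested on simulated data. Levels per kb used union exon lengths of GENCODE M21. Per-library values are given for the 6 members of smallest p among those called in each comparison, the 5 of highest level per kb and the 3 of smallest interaction p, and other members with values were chosen after seeing them. The counts cover all 39 members, 1 of which is not reported singly here. The members and lists were chosen with earlier results of these data known. Enzymes and relatives given singly are among the 3 of smallest p of their list in a comparison, except Mtch1 and Ucp1.

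Alternatives were DESeq2 1.42.0 (size factors, Wald test), no filter, only the groups compared and the study's thresholds (1.5-fold, unadjusted p under 0.05). Others were the replicate number as a block, single libraries left out, and the libraries with most transcripts of other organs, or the seminal vesicle genes, left out. Added after seeing the data were WT-HFD 2 and 4 left out and a block in the KO libraries alone. KO-HFD and KO-NCD libraries of the same number deviated together from their group means (r = 0.468, 0.699 and 0.195 for numbers 1, 2 and 3). Libraries of different numbers had r from -0.571 to 0.182, so number 3 stood little apart. The sample titles give replicate numbers and no pairing, so pairing in KO mice is not settled. The block changed no call in KO-HFD against KO-NCD. Promoter sequences are RefSeq's on GRCm38.p6.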

Additional observations from a re-analysis of the deposited data

Results flagged for a closer look

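For 16 of the 39 members the change with HFD differed between KO and WT mice at an adjusted p under 0.05, as against 17.7% of all genes. The test was the interaction term of edgeR's quasi-likelihood test. On the log2 scale, as the change in KO minus the change in WT mice, the interaction among the members reported here was 2.03 for Slc25a29, 2.02 for Slc25a10, 1.82 for Slc25a35, 1.35 for Slc25a25, 1.05 for Slc25a33, 1.03 for Slc25a39, 0.88 for Slc25a17, 0.86 for Slc25a4, 0.69 for Slc25a3 and 0.52 for Slc25a16. It was -2.66 for Slc25a34, a member only through its WT-HFD level, -2.33 for Slc25a43, -1.33 for Slc25a24, -1.21 for Slc25a37 and -1.05 for Slc25a45. It lost the threshold when single libraries were left out for Slc25a3, Slc25a16, Slc25a34, Slc25a43 and Slc25a45. For Slc25a16 this was so without KO-NCD 1, and for Slc25a3 without any of 5 libraries. For the low-level members the number of such libraries was 11 of 12 for Slc25a34 and 9 for Slc25a43, and it was 8 for Slc25a45. The highest adjusted p among these fits was 0.107 for Slc25a34, 0.116 for Slc25a43 and 0.066 for Slc25a45. The interaction of Slc25a10, Slc25a17, Slc25a24, Slc25a29 and Slc25a35 passed in every alternative run. With the replicate number as a block, it lost the threshold for Slc25a3, Slc25a4, Slc25a16, Slc25a25, Slc25a33, Slc25a34, Slc25a43 and Slc25a45, and 8 of the 16 members passed.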

How the results depend on the processing

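No call of a member changed direction under any alternative. Of the calls, 11 of 23 in WT-HFD against WT-NCD passed in every alternative (among them Slc25a10, Slc25a16, Slc25a17, Slc25a23, Slc25a24, Slc25a29, Slc25a35, Slc25a37, Slc25a39 and Slc25a44), as did 4 of 14 in KO-HFD against WT-HFD (Slc25a23, Slc25a29, Slc25a35 and Slc25a37), 6 of 16 for the interaction and 1 of 9 in KO-NCD against WT-NCD (Slc25a17). Leaving out single libraries gave 22 to 24 called members in WT-HFD against WT-NCD, 0 to 0 in KO-HFD against KO-NCD, 7 to 13 in KO-HFD against WT-HFD, 11 to 16 for the interaction and 4 to 11 in KO-NCD against WT-NCD. Without WT-NCD 1 and WT-NCD 2, 9 passed for the interaction and 1 in KO-NCD against WT-NCD. Without KO-NCD 2 and KO-HFD 2, 7 passed in KO-HFD against WT-HFD. Without WT-HFD 2 and WT-HFD 4, chosen after seeing the data, the counts were 14 in WT-HFD against WT-NCD, 6 in KO-HFD against WT-HFD and 9 for the interaction. These fits hold fewer samples, and no alternative frees WT-NCD of seminal vesicle transcripts. Those without WT-NCD 1 and WT-NCD 2 or without WT-HFD 2 and WT-HFD 4 keep a single library of that group. Such a group shows no spread of its own, and the cause of the lower counts was not tested further. The Wald test of DESeq2 called 3 members in KO-HFD against KO-NCD. With the replicate number as a block, 22 members passed in WT-HFD against WT-NCD, 0 in KO-HFD against KO-NCD and 6 in KO-HFD against WT-HFD. There were 8 for the interaction and 7 in KO-NCD against WT-NCD. WT-HFD 4, alone in its number, is fitted apart by the block, so WT-HFD rests there on WT-HFD 1 and 2. The deviations of same-numbered libraries all correlated above 0.1 in KO-HFD against KO-NCD alone. There the block changed no call, also with the KO libraries alone. In the other comparisons the deviations of same-numbered libraries did not all correlate above 0.1. Filters, size factors and the fit of only the compared groups kept each count within 1.5 times. With 3 libraries a group, small changes could be missed, as for the low member Slc25a53, whose SE was 0.28 in WT-HFD against WT-NCD.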
